A study of Mus musculus with 9 samples.

Results

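The NR4A receptors are a family of 3 orphan nuclear receptors, encoded by Nr4a1 (Nur77), Nr4a2 (Nurr1) and Nr4a3 (Nor-1). They were taken by gene symbol from the 19938 genes measured on the arrays, and all 3 were present, each read by 1 transcript cluster (a set of probes along one transcript). Blood monocytes came from tumor-free Balb/c mice aged 14 to 18 weeks, of wild type, Ccl2-/- or Ccr2-/- genotype, with both deletions on that strain background and no treatment of any group. Each genotype had 3 Affymetrix Mouse Gene ST arrays, 9 in all, and each array held RNA pooled from the blood of 5 mice, so that the spread between arrays is a spread between pools. Ccl2-/- mice lack the chemokine CCL2, and Ccr2-/- mice lack its receptor, in every cell.

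NR4A receptors differ from most nuclear receptors in that their ligand pocket is filled with bulky side chains. Their activity is set largely by how much of them is made. They are immediate-early genes, transcribed within minutes of a stimulus without new protein synthesis, through factors such as CREB, MEF2, SRF and NFAT. NR4A proteins bind the NBRE sequence as monomers, and NR4A1 and NR4A2 can also pair with the retinoid X receptors. In mouse blood, Nr4a1 is required for the formation and survival of Ly-6C low monocytes, the patrolling cells that arise from Ly-6C high (classical, CCR2-bearing) monocytes.

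CREB binds the cAMP response element (CRE, TGACGTCA) and, less strongly, its core TGACG. The 250 bases before the RefSeq start of each gene (GRCm38.p6) were searched on both strands, and each of the 3 NR4A genes held exactly 4 copies of TGACG. Of all 32851 promoters in the RefSeq table, 45 (0.137%) held at least 4 copies and 17.8% held at least 1. The stretches are shown because they are a sequence feature that the 3 genes share, with the core in capitals, written TGACG on the strand shown or CGTCA for the opposite strand. The first is the whole stretch before the start of Nr4a2, at chr2:57124004-57124253 on the minus strand. The others are windows of 30 bases around single cores, 4 for Nr4a1 on chromosome 15 and 3 for Nr4a3 on chromosome 4, all on the plus strand, and the second Nr4a3 window holds 2 cores.
Nr4a2 upstream: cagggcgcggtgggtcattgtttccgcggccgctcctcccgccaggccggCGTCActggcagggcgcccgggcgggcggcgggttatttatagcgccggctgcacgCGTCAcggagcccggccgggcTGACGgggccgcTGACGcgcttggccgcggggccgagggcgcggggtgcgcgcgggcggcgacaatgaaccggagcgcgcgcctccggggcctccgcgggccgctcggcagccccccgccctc
Nr4a1 at chr15:101266601-101266630: ccgcgctccctgCGTCAatggaaccccgcg
Nr4a1 at chr15:101266621-101266650: gaaccccgcgtgCGTCAcgcgcgcagacat
Nr4a1 at chr15:101266765-101266794: ccgggccgtgtgCGTCAgtggcgcccccgc
Nr4a1 at chr15:101266794-101266823: cccctctccatgCGTCAcggagcgcttaag
Nr4a3 at chr4:48045062-48045091: ggaggaggagggTGACGtagcgtcccatgt
Nr4a3 at chr4:48045080-48045109: agcgtcccatgtCGTCAcatTGACGtctcg
Nr4a3 at chr4:48045146-48045175: ctgtggcataaaTGACGtgccgagagagcg

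The cores lay 233, 213, 69 and 40 bases before the start in Nr4a1, 200, 144, 123 and 111 bases in Nr4a2, and 231, 213, 205 and 147 bases in Nr4a3. All 4 cores of Nr4a1 were part of the longer string TGCGTCA, which occurred 4 or more times in 1 promoter of the table (0.00304%) and in neither of the other two genes. That string was searched only after the Nr4a1 sequence had been read. None of the stretches held the full CRE (in 1.55% of promoters), the NBRE sequence AAAGGTCA (in 1.34%) or the CArG box bound by SRF (in 1.47%). Of 18 other immediate-early genes with a promoter in the table, 10 held at least 1 core and 1 held at least 3. In RefSeq the genes lie at chr15:101253902-101274795 (Nr4a1), chr2:57106830-57124003 (Nr4a2) and chr4:48045078-48086447 (Nr4a3). The windows of Nr4a1 and, in part, of Nr4a3 fall inside these spans, and whether they are transcribed as part of longer transcripts was not determined.

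Across the series, the array medians were 324.1 to 355.1, apart from Ccl2-/- replicate 1 at 430.8, and results that rest on that array are also given without it or with each array centered on its median. Centering moved the median log2 change of all genes in Ccl2-/- over wild type from 0.08 to -0.03. Ccr2 itself read 13.09 ± 0.15 (SD, n = 3 arrays, log2 intensity) on wild type, 12.76 ± 0.16 on Ccl2-/- and 9.44 ± 0.03 on Ccr2-/- arrays, a fall to 0.0797-fold (limma adjusted p = 4.33e-06). Genes were called by limma, a linear model with variances moderated across genes, at an adjusted p under 0.05. Of the genes tested, 0.16% were called in Ccl2-/- over wild type, 13.3% in Ccr2-/- over wild type (4.91% higher, 8.38% lower) and 3.6% in Ccr2-/- over Ccl2-/- monocytes. In Ccr2-/- over wild type the calls were 978 higher and 1670 lower, or 1317 and 1378 with quantile normalization. Both comparisons with wild type use the same wild type arrays, so their values for a gene are not independent.

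Nr4a3, whose receptor acts in myeloid cells and in blood stem cells, showed the largest change of the family. Its log2 intensity was 9.09, 9.36 and 9.32 in wild type replicates 1 to 3. It was 10.12, 10.05 and 9.79 in Ccl2-/- and 10.25, 10.05 and 10.18 in Ccr2-/- monocytes. Every knockout array lay above every wild type array, and the ranges of the knockouts overlapped. The group means on the log2 scale were 9.25 ± 0.15 (SD, n = 3), 9.99 ± 0.17 and 10.16 ± 0.10. In Ccr2-/- monocytes Nr4a3 rose 1.88-fold over wild type (95% interval 1.57 to 2.24; log2 change 0.91, standard error 0.11, limma adjusted p = 0.00127). Its rise was the 144th in size of the 978 genes called higher. Its ratio of Ccl2-/- over wild type was 1.66 (95% interval 1.39 to 1.99; log2 change 0.73), with a limma adjusted p of 0.0627, which missed the threshold.

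The Ccr2-/- call of Nr4a3 held under each of the 17 alternative settings (limma adjusted p 0.000259 to 0.00853). The Ccl2-/- value passed under 4 of 17 settings, which were quantile normalization (adjusted p = 0.0373), an intensity trend (0.0143), an offset of 50 (0.0433) and the fit without Ccl2-/- replicate 3 (0.016), and the limma adjusted p over all 17 reached 0.298. Without Ccl2-/- replicate 1 its log2 change was 0.67 (limma adjusted p = 0.0878). Compared directly, Nr4a3 in Ccr2-/- monocytes was 1.13-fold of Ccl2-/- (95% interval 0.947 to 1.35, limma adjusted p = 0.44), a difference within the spread of the arrays.

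Nr4a2, best known for its role in dopamine neurons and also induced in activated macrophages, had a similar pattern and a smaller rise. Its log2 intensity was 8.93, 9.13 and 9.01 in wild type, 9.79, 9.33 and 9.30 in Ccl2-/-, and 9.59, 9.57 and 9.59 in Ccr2-/- monocytes. The 3 Ccr2-/- arrays were nearly identical, and Ccl2-/- replicate 1 stood well above its 2 fellow arrays. All 6 knockout arrays lay above the wild type arrays, and the group means were 9.02 ± 0.10 (SD, n = 3), 9.47 ± 0.28 and 9.58 ± 0.0091. The wild type readings of Nr4a2 and Nr4a3 were below that of the deleted Ccr2 gene on Ccr2-/- arrays (mean 9.44), though different probes do not share a scale. Without detection calls, whether these genes were expressed on wild type arrays was not determined. In Ccr2-/- monocytes Nr4a2 rose 1.48-fold (95% interval 1.203 to 1.808; log2 change 0.56, standard error 0.13, limma adjusted p = 0.0215), the 406th rise in size of 978. This call was lost when wild type replicate 1 or 3 or any Ccr2-/- array was left out (limma adjusted p 0.0634 to 0.0903), with log2 changes of 0.52 to 0.61 over all single arrays left out.

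In Ccl2-/- monocytes Nr4a2 was 1.37-fold of wild type (95% interval 1.12 to 1.68, limma adjusted p = 0.198) and did not pass. Its log2 change there was 0.45, and 0.29 without Ccl2-/- replicate 1 (limma adjusted p = 0.184). Between the knockouts the ratio was 1.08 (95% interval 0.88 to 1.32, limma adjusted p = 0.676), with overlapping arrays.

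**Figure D1:**
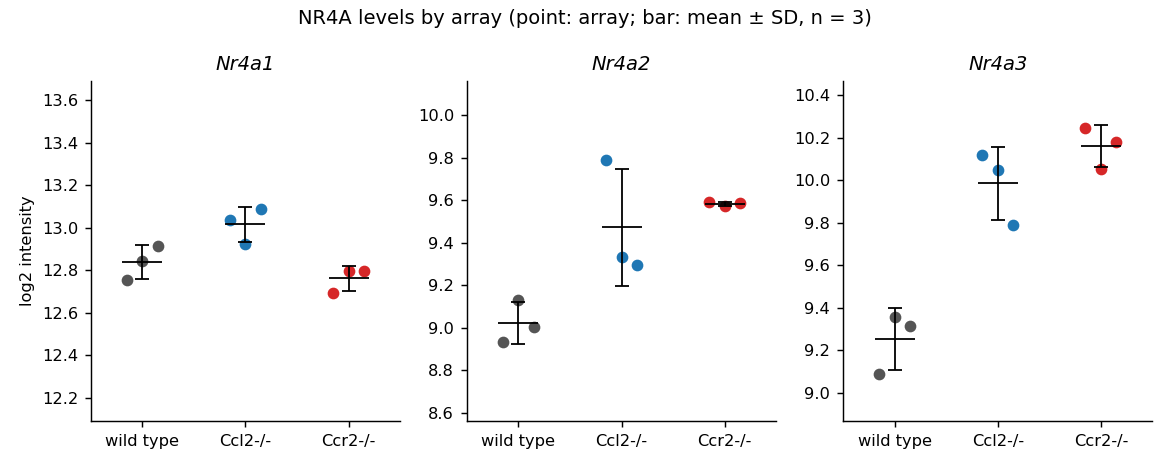
Log2 intensity of Nr4a1, Nr4a2 and Nr4a3 (vertical axes of equal span) on each of the 3 arrays of a genotype, with the mean and SD (bars). All knockout arrays of Nr4a2 and Nr4a3 lie above the wild type arrays, while for Nr4a1 the Ccr2-/- arrays overlap the wild type arrays and the Ccl2-/- arrays lie highest.

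Nr4a1, the survival factor of Ly-6C low monocytes, did not follow the other members. Its log2 intensity was 12.75, 12.85 and 12.91 in wild type, 13.04, 12.92 and 13.09 in Ccl2-/-, and 12.69, 12.79 and 12.80 in Ccr2-/- monocytes. The Ccl2-/- arrays were all above the others, and the wild type and Ccr2-/- arrays overlapped. The group means were 12.84 ± 0.08 (SD, n = 3), 13.02 ± 0.08 and 12.76 ± 0.06. Nr4a1 in Ccl2-/- monocytes was 1.13-fold of wild type (95% interval 1.01 to 1.27, limma adjusted p = 0.362). With each array centered on its median, this log2 change went from 0.18 to 0.06. Its ratio of Ccr2-/- over wild type was 0.949 (95% interval 0.843 to 1.07, limma adjusted p = 0.703), an interval that leaves out the estimated rise of Nr4a2 or Nr4a3. Directly compared, Nr4a1 was 0.839-fold in Ccr2-/- over Ccl2-/- monocytes (95% interval 0.745 to 0.944, limma adjusted p = 0.113), and passed with an intensity trend (adjusted p = 0.0179).

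**Figure D2:**
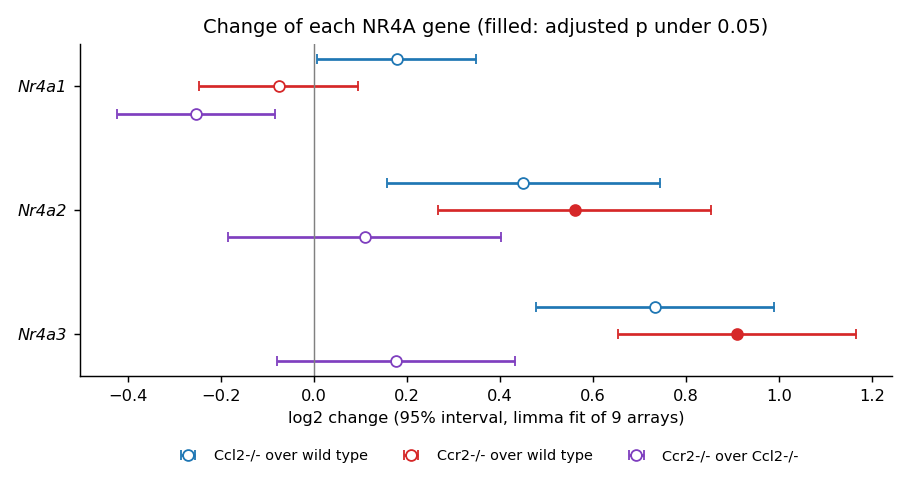
Log2 change of each NR4A gene in 3 comparisons (horizontal axis), with 95% intervals from the limma fit of 9 arrays, and filled points for an adjusted p under 0.05. The filled points are Nr4a2 (0.56) and Nr4a3 (0.91) in Ccr2-/- over wild type.

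Of the 3 receptors, 2 were thus called higher in Ccr2-/- monocytes and none in Ccl2-/- monocytes. Nr4a1, Nr4a2 and Nr4a3 each had an unadjusted limma p under 0.05 in Ccl2-/- over wild type, at 0.0422, 0.00737 and 0.000143. By that p they ranked 2322nd, 743rd and 44th of the 19938 genes, so many other genes passed the same cut. The share of all genes under an unadjusted p of 0.05 was not determined, so such counts in the lists below have no share beside them. Without centering, arrays of a knockout all above wild type were seen for 3 receptors in Ccl2-/- monocytes, where 9.43% of all genes showed this. They were seen for 2 in Ccr2-/- monocytes, where 15.7% did. Relative to the median of each array, Nr4a1 no longer showed this in Ccl2-/- monocytes. The study's methods sorted genes by a ratio over 1.2 and a difference over 100. Applied to the mean linear intensities, Nr4a3 (612 in wild type, 1019 in Ccl2-/-, 1148 in Ccr2-/-) and Nr4a2 (521, 720 and 767.3) were past these limits in both knockouts. Nr4a1 (7330, 8293 and 6951) was past them in neither. Of all genes, 7.84% were higher by these limits in Ccl2-/- and 6.56% in Ccr2-/- monocytes.

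An exact permutation test over all 1680 assignments of the 9 arrays to the genotypes, with a one-way F statistic, gave p = 0.00714 for Nr4a3, 0.0143 for Nr4a2 and 0.0179 for Nr4a1, where the smallest possible p is 0.00357. These are 3 of 6 such tests, on levels without centering, and 3 against 3 arrays alone cannot go below an exact two-sided p of 0.1. The other tests were of the difference between 2 members on the same array, which the scaling of an array as a whole does not touch, and were added after the levels had been seen. Only shifts of such a difference between genotypes can be read, since different probes do not share a scale. Nr4a3 minus Nr4a1 was -3.59 on the log2 scale in wild type (-3.67 to -3.49), -3.03 in Ccl2-/- (-3.30 to -2.88) and -2.60 in Ccr2-/- monocytes (-2.74 to -2.45). The 3 genotypes did not overlap (exact permutation p = 0.00357, the smallest possible). For Nr4a2 minus Nr4a1 the exact permutation p was 0.0143, with means of -3.82, -3.54 and -3.18. Nr4a3 minus Nr4a2 had means of 0.23, 0.51 and 0.58 (exact permutation p = 0.0714).

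Relative to the median of its own array, Nr4a3 was 0.45 to 0.76 above it in wild type, 1.16 to 1.36 in Ccl2-/- and 1.39 to 1.62 in Ccr2-/- monocytes, on the log2 scale. Nr4a2 was 0.30 to 0.45, 0.64 to 0.83 and 0.91 to 0.97 above it. On that scale both genes ran in the order wild type, Ccl2-/-, Ccr2-/- with no overlap of neighbors, though for Nr4a3 the knockouts nearly met (1.36 and 1.39). The share of all genes with this order was not determined, so it is not read as particular to these genes. The direct limma test on the centered values did not separate the knockouts (adjusted p = 0.255 for Nr4a3 and 0.272 for Nr4a2). Nr4a1 was 4.12 to 4.35 above the array median in wild type, 4.08 to 4.48 in Ccl2-/- and 4.07 to 4.16 in Ccr2-/- monocytes. Its ranges in the 3 genotypes thus overlapped, and Ccl2-/- replicate 1 (4.08) lay below every wild type array.

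The arrays measure RNA from a mixed fraction, in which a shift in the number of cells that carry a transcript and a shift in the transcript per cell cannot be told apart. The purification removed cells stained for MHC class II, CCR3, Ly-6G, B220, CD8 or CD4, and kept those of the remainder that bore CD11b. The study defines monocytes as lacking NK1.1, a marker of NK cells, and the depletion antibodies its methods name include none against it. NK cells can carry CD11b. Of 21 listed NK cell genes 19 were measured. All 19 were called higher in the Ccr2-/- fraction (median 1.74-fold), beside 4.91% of all genes, and 17 to 19 were over the alternatives. Klrc1, which encodes the receptor subunit NKG2A, was the 1 called in Ccl2-/- monocytes (1.64-fold, limma adjusted p = 0.0493), beside 0.16% of all genes. The list median there was 1.39-fold. All 19 had a higher mean in Ccl2-/- monocytes, 17 of them at an unadjusted limma p under 0.05, and 0 to 14 were called over the alternatives. The mean log2 level of the NK cell list was 11.66 to 11.78 on wild type, 12.03 to 12.30 on Ccl2-/- and 12.52 to 12.60 on Ccr2-/- arrays. The lowest value of its genes on any array was 8.08, for Klra8, a receptor of the Ly49 family. Genes of other lists read as low as 6.80 (the nuclear receptor gene Nr1i3). No detection calls were used, so whether Klra8 was expressed on each array was not determined.

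The mean levels of the NK cell list and of Nr4a3 were in the same order of genotypes, and both were lowest on replicate 3 among the Ccl2-/- arrays. Against the wild type mean, the list stood at 0.56, 0.51 and 0.29 on Ccl2-/- replicates 1 to 3 and Nr4a3 at 0.87, 0.80 and 0.54. On the Ccr2-/- arrays the list stood at 0.86, 0.81 and 0.78 and Nr4a3 at 1.00, 0.80 and 0.93, so replicates 2 and 3 were in opposite order. The part of NK cell RNA in the values of Nr4a2 and Nr4a3 was not tested. Of 12 measured T cell genes 1 was called, the signaling chain Cd247, which NK cells share, and the T cell list mean overlapped between genotypes (9.42 to 9.46 in wild type, 8.81 to 10.30 in Ccr2-/- arrays).

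**Figure D3:**
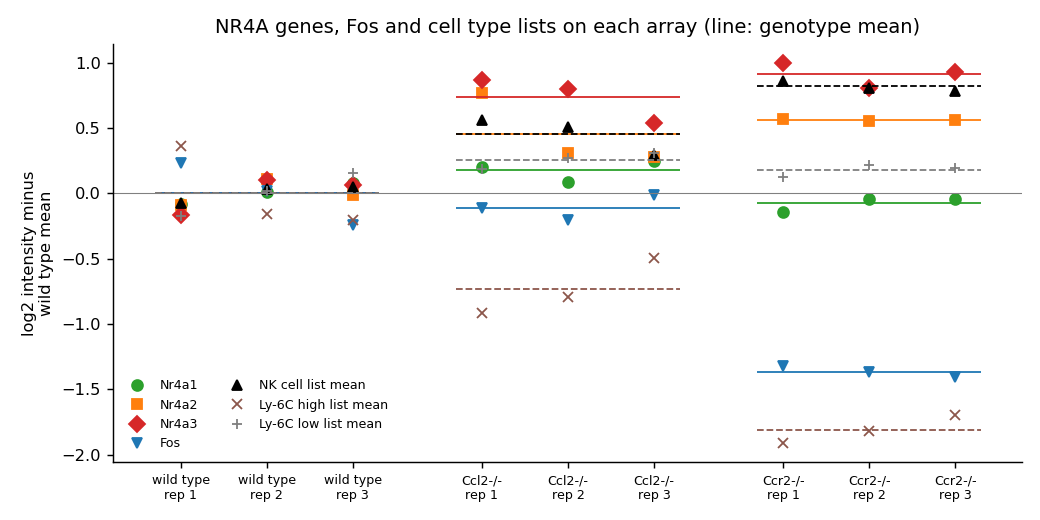
Log2 intensity minus the wild type mean (vertical axis) on each of the 9 arrays, for the NR4A genes, Fos, and the mean of the NK cell, Ly-6C high and Ly-6C low marker lists, with a line at each genotype mean. Nr4a2, Nr4a3 and the NK cell list are above 0 on all knockout arrays, and Fos and the Ly-6C high list are at their lowest on the Ccr2-/- arrays. The Ly-6C high list includes Ccr2, the gene deleted in Ccr2-/- mice.

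Likeness over the 9 arrays was searched among 17869 genes with a mean intensity over 100. Predicted genes and clones, with names such as those in Gm, LOC or Rik, were left out of this search. The gene most like Nr4a3 was Klrc1 (Pearson r 0.992, Spearman rho 0.983, and r 0.978 after removing the genotype means). Jade2 (r 0.992), part of a histone acetylation complex, and the nuclear pore gene Nup210 (0.989) came next, and Borcs6 was lowest (-0.989). For Nr4a2 the closest were Rasgef1a (0.988), Mast2 (0.982) and Trappc4 (0.977), with Cyp4f14, a cytochrome P450, lowest (-0.989). For Nr4a1 they were the junction protein gene Pkp4 (0.961), the lactate transporter gene Slc16a3 (0.952) and Plagl2 (0.95), a zinc finger factor, with Cops3 lowest (-0.964). Nr4a2 and Nr4a3 had an r of 0.925 with each other and 0.653 after removing the genotype means. By the latter value Nr4a3 ranked only 7927th of 17869 genes in likeness to Nr4a2, and Nr4a2 ranked 2249th in likeness to Nr4a3. The 0.653 is thus not read as particular to this pair. Nr4a1 had an r of 0.08 with Nr4a2 and 0.02 with Nr4a3. These values describe 9 arrays that share 3 genotypes and, in part, an array's overall brightness.

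The genes induced with NR4A after a stimulus did not move as a block. Of 24 immediate-early genes, 4 rose and 5 fell in Ccr2-/- over wild type (median 0.981-fold). The called genes were 37.5% of the list, beside 13.3% of all genes. None was called by limma in Ccl2-/- monocytes (median 1.11-fold, with 9 higher and 1 lower at an unadjusted p under 0.05). Those that rose were Rgs1, a brake on G protein signaling (2.16-fold, limma adjusted p = 0.00218), the MAP kinase phosphatases Dusp2 (1.77-fold, 0.00492) and Dusp5 (1.31-fold), and the kinase Plk3 (1.36-fold). The 2 largest falls were those of Atf3, a stress-induced factor (0.31-fold, limma adjusted p = 0.00052), and Fos, a subunit of AP-1 (0.388-fold, 0.000543). The phosphatase Dusp1 (0.812-fold), Zfp36 (0.814-fold), which marks cytokine mRNA for decay, and Fosl2 (0.82-fold) were also lower. Egr1, a zinc finger factor of the same early wave, was 1.04-fold of wild type (adjusted p = 0.888), and the AP-1 subunit Junb 0.892-fold (0.223).

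On the log2 scale Fos read 11.96 ± 0.24 (SD, n = 3) on wild type, 11.85 ± 0.09 on Ccl2-/- and 10.60 ± 0.04 on Ccr2-/- arrays. Fos was lower in Ccr2-/- than in Ccl2-/- monocytes (0.419-fold, limma adjusted p = 0.00482), as were Atf3 (0.477-fold, 0.0141) and Dusp1 (0.722-fold, 0.0154). The direct call of Dusp1 was lost after centering (limma adjusted p = 0.0995), and the count of 3 lower in this comparison was 1 to 7 over the alternatives. Rgs1 read 8.75 ± 0.07, 9.73 ± 0.23 and 9.86 ± 0.28, and Dusp2 read 10.87 ± 0.15, 11.55 ± 0.28 and 11.70 ± 0.04. Like Nr4a3, these genes had higher means in both knockouts, with Ccl2-/- values that missed the threshold (1.98-fold, limma adjusted p = 0.0637, and 1.60-fold, 0.0941). Over the alternatives the Ccr2-/- counts ranged from 2 to 5 higher and 2 to 6 lower.

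**Figure D4:**
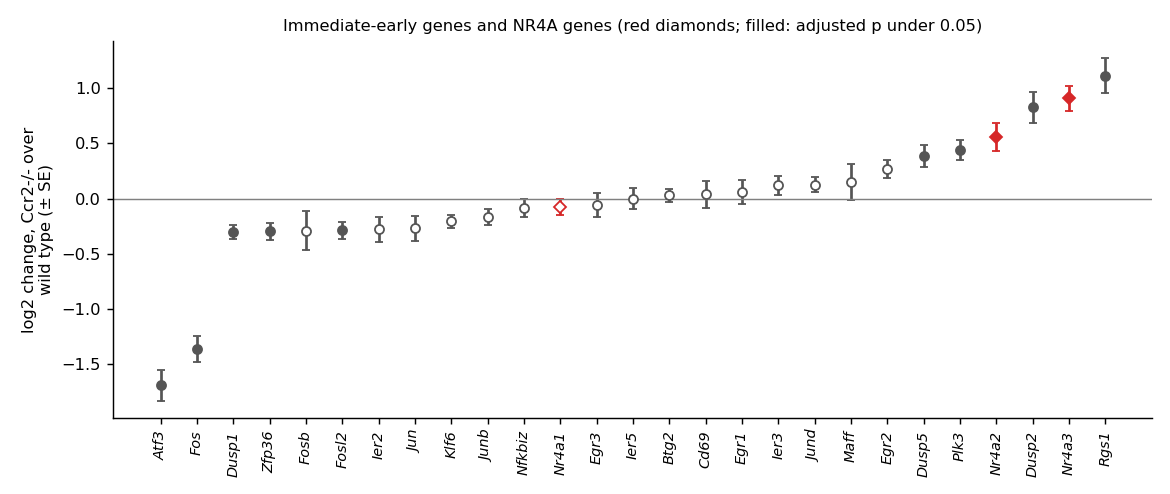
Log2 change in Ccr2-/- over wild type monocytes with its standard error (vertical axis) for 24 immediate-early genes and the 3 NR4A genes (red diamonds), in order of size, filled where the limma adjusted p was under 0.05. Nr4a2 and Nr4a3 lie with Rgs1 and Dusp2 at the upper end, Nr4a1 lies near 0, and Atf3 and Fos are lowest.

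Of 15 genes for factors that induce NR4A transcription, 4 rose and none fell in Ccr2-/- over wild type (median 1.10-fold). The 4 are 26.7% of the list, beside 4.91% of all genes called higher. They were Nfatc3 (1.31-fold, limma adjusted p = 0.00857) and Nfatc1 (1.25-fold, 0.0102), calcium-regulated factors, Crem (1.31-fold, 0.0153), a cAMP-responsive relative of CREB, and Elk4 (1.23-fold, 0.029), a partner of SRF. Crem was dim, at -1.21 to -0.61 from the array median on the log2 scale, and whether it was expressed on each array was not determined. Creb1 was 1.02-fold of wild type (adjusted p = 0.914), its coactivator Crtc3 1.02-fold (0.914) and Mef2c 0.807-fold (0.0853). None of the 15 was called by limma in Ccl2-/- monocytes (4 higher and 0 lower at an unadjusted p under 0.05). The Ccr2-/- count of 4 was 1 to 6 over the alternatives. Of 8 measured genes of cAMP signaling, 2 rose and 2 fell in Ccr2-/- monocytes. The called genes were 50% of these 8, beside 13.3% of all genes. The prostaglandin receptors Ptger2 (0.52-fold, limma adjusted p = 0.000697) and Ptgir (0.538-fold, 0.0087) were lower, and Ptger4 (1.23-fold, 0.0288) and the kinase subunit Prkacb (1.33-fold, 0.0171) higher. All 4 act on the side of cAMP, and their changes ran in opposite directions.

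Among 41 other nuclear receptors measured, none was called higher and 5 were lower in Ccr2-/- over wild type (median 0.996-fold). The 5 are 12.2% of the 41, beside 13.3% of all genes called in this comparison and 8.38% called lower. They were the retinoic acid receptors Rara (0.718-fold, limma adjusted p = 0.00333) and Rarg (0.789-fold, 0.0215), the thyroid hormone receptor Thra (0.649-fold, 0.0106), the orphan receptor Nr2c1 (0.734-fold, 0.0271) and the estrogen receptor Esr1 (0.834-fold, 0.0418). By unadjusted limma p under 0.05, 3 were higher and 9 lower. None was called in Ccl2-/- monocytes (1 higher and 1 lower at an unadjusted p under 0.05). Rara was also lower in Ccr2-/- than in Ccl2-/- monocytes (0.726-fold, limma adjusted p = 0.02; 0.205 after centering). Over the alternatives 0 to 1 of the 41 were called higher and 1 to 6 lower. None of 6 measured partners and co-regulators of NR4A, of which the 3 retinoid X receptors are also among the 41, was called by limma in any comparison. At an unadjusted p under 0.05, 1 was higher and 2 lower in Ccr2-/- over wild type, 0 in Ccl2-/- over wild type and 1 lower in Ccr2-/- over Ccl2-/-, and the closest to the threshold in Ccr2-/- over wild type was the dimer partner Rxra, at 0.838-fold (limma adjusted p = 0.0542). By another setting, the fit without Ccl2-/- replicate 1, 1 of the 6 was called higher and 1 lower.

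**Figure D5:**
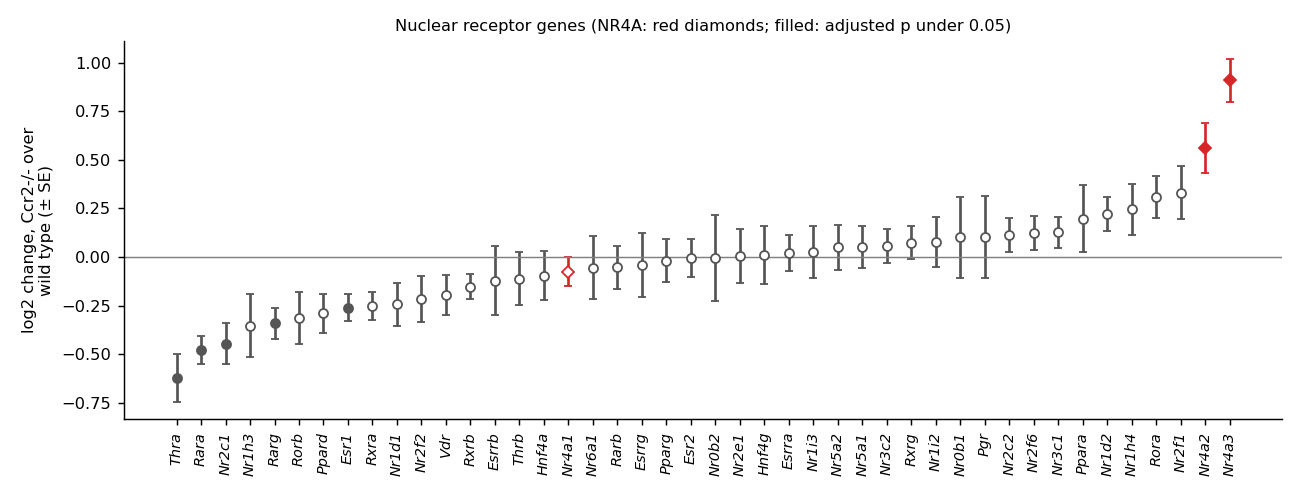
Log2 change in Ccr2-/- over wild type monocytes with its standard error (vertical axis) for 41 other nuclear receptor genes and the 3 NR4A genes (red diamonds), filled where the limma adjusted p was under 0.05. Nr4a3 and Nr4a2 are the 2 highest points, and the filled gray points are Rara, Rarg, Thra, Nr2c1 and Esr1, all below 0.

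The factors that act with Nr4a1 in the development of Ly-6C low monocytes were lower, where called. Of 12 such regulators 7 fell and none rose in Ccr2-/- over wild type monocytes (median 0.80-fold). The 7 are 58.3% of the list, beside 8.38% of all genes called lower. The largest fall was that of Cebpa, a myeloid lineage factor (0.421-fold, limma adjusted p = 0.000534), followed by Rbpj, the DNA-binding arm of Notch signaling (0.668-fold, 0.00134). Klf4 (0.719-fold, 0.0246), Cebpb (0.775-fold, 0.0319), which drives Nr4a1 in this lineage, Notch2 (0.787-fold, 0.00951), the growth factor receptor Csf1r (0.776-fold, 0.00963) and Spi1 (0.812-fold, 0.031) were also lower. Klf2, which acts upstream of Nr4a1, was 1.06-fold of wild type (adjusted p = 0.535). The count of 7 was 2 to 7 over the alternatives. In the direct comparison Cebpa, Rbpj, Cebpb and Notch2 were called lower in Ccr2-/- than in Ccl2-/- monocytes. After centering only Cebpa of these 4 kept its call, and the count was 0 to 7 over the alternatives. None of the 12 was called by limma in Ccl2-/- over wild type (1 higher and 2 lower at an unadjusted p under 0.05).

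The markers of Ly-6C low monocytes did not share that direction. Of 15 measured, 3 were called higher in Ccr2-/- monocytes (list median 1.08-fold) and none lower. They were the tetraspanin Cd9 (1.68-fold, limma adjusted p = 0.000612), the sialoglycoprotein Spn or CD43 (1.31-fold, 0.0198) and the phosphatase Dusp16 (1.42-fold, 0.0449). The 3 are 20% of the list, beside 4.91% of all genes called higher, and the calls of Spn and Dusp16 were lost after centering. At an unadjusted limma p under 0.05, 5 were higher and 1 lower, Cx3cr1 (0.86-fold, limma adjusted p = 0.196). In Ccl2-/- monocytes 1 rose, Cd9 (1.45-fold, limma adjusted p = 0.0334), with a list median of 1.17-fold. There 7 were higher and 0 lower at an unadjusted limma p under 0.05. The 9 measured markers of Ly-6C high monocytes all fell in Ccr2-/- monocytes, to a median of 0.288-fold, beside 8.38% of all genes called lower. They include Ccr2 itself, whose fall there follows from the deletion, and which also enters the list means. In Ccl2-/- monocytes 1 of the 9 was called lower, Cd177, with a list median of 0.583-fold. All 9 were lower in Ccl2-/- monocytes at an unadjusted limma p under 0.05, and the call of Cd177 was lost after centering (limma adjusted p = 0.0681). Their mean log2 level was 11.41 to 11.97 on wild type, 10.70 to 11.12 on Ccl2-/- and 9.71 to 9.92 on Ccr2-/- arrays. A broader list of monocyte and macrophage genes had 14 measured members, of which 9 fell in Ccr2-/- over wild type. Its median was 0.783-fold, near that of the 12 regulators above (0.80-fold), so their fall was not particular to them. Of these lists, only the Ly-6C high list had a mean apart from wild type, and lower, on all arrays of both knockouts. The Ly-6C low list mean overlapped wild type (11.938 to 12.263) in Ccr2-/- monocytes (12.236 to 12.325). The broader list mean overlapped wild type (12.648 to 12.765) in Ccl2-/- monocytes (12.512 to 12.689). The part of these lists in the NR4A values was not tested.

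NR4A proteins also act on cell death, in part by binding BCL-2 at the mitochondrion. Of 13 measured genes of the Bcl-2 family, 2 that protect from death rose in Ccr2-/- monocytes, Bcl2 (1.80-fold, limma adjusted p = 0.000722) and Bcl2l1 (1.41-fold, 0.00405). The 2 that fell, Bmf (0.612-fold, 0.00083) and Bid (0.743-fold, 0.00298), promote death. Mcl1, a protective member, was 0.858-fold of wild type (adjusted p = 0.0658), and the list median was 0.906-fold. The called genes were 30.8% of the list, beside 13.3% of all genes. None was called by limma in Ccl2-/- monocytes (3 higher and 2 lower at an unadjusted p under 0.05), where Bcl2 was 1.48-fold of wild type (limma adjusted p = 0.0537).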

How the data were processed

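Monocyte RNA from 9 pools of 5 mice was hybridized to Affymetrix Mouse Gene ST arrays. The authors computed linear intensity values with dChip and deposited them for 35512 transcript clusters on each array. The dChip release, normalization and expression model they used were not given in the sources used here. No detection calls were used.

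Gene symbols came from the platform annotation (21789 clusters with 1 symbol, 1621 with several and 12102 with none, of which the latter kinds were left out). For the 999 genes with more than 1 cluster, the brightest cluster on average was taken. Values below 1 (19 in all) were set to 1 and log2 was taken, with no step between arrays. Genotypes from the sample labels were compared in one limma fit of all 9 arrays (limma 3.58.1, R 4.3.3) with Benjamini-Hochberg adjustment over 19938 genes, and intervals cover 95%. Exact permutation tests used every assignment of arrays and motif searches used the RefSeq promoter table (SciPy 1.17.1, Python 3.11.15). Arrays have no read depth, and their number limits the precision. The limma script was tested on simulated data.

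The members, the 21 gene lists and the tests were chosen with earlier results of these data known, and the lists were written from general knowledge. Named genes were the NR4A genes, Ccr2, preset members of the lists (1 of which is not reported here), the 3 called members with the smallest p in each list, and the genes most and least like each NR4A gene. Members that make up small counts, and further members of a list, were named after their values were seen. The lists of dendritic cell, platelet, eosinophil, B cell, erythroid, neutrophil, and basophil and mast cell genes were read in the same way. The alternatives were quantile normalization, centering, dropping genes with means up to 100, an intensity trend, an offset of 50, averaging clusters, fitting only the 6 arrays compared, a replicate block and leaving out each array.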

Additional observations from a re-analysis of the deposited data

How the results depend on the processing

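Every log2 change of an NR4A gene kept its direction under all 17 alternatives. Calls changed for Nr4a1 in Ccr2-/- over Ccl2-/- (-0.25, called with an intensity trend), for Nr4a3 in Ccl2-/- over wild type (called at 0.68 with quantile normalization, 0.73 with an intensity trend and 0.69 with an offset of 50; 0.65 to 0.83 with single arrays left out, called without Ccl2-/- replicate 3) and for Nr4a2 in Ccr2-/- over wild type (0.52 to 0.61 with single arrays left out). The genes called in Ccl2-/- over wild type numbered 32, and 62 with quantile normalization, 366 with a trend, 105 with an offset of 50, 2 with 6 arrays, and 6 to 476 with single arrays left out (476 without Ccl2-/- replicate 3). The 2648 calls in Ccr2-/- over wild type were 1647 after centering and 1663 to 3479 with single arrays left out. The 718 calls in Ccr2-/- over Ccl2-/- were 146 higher and 572 lower, against 304 and 386 with quantile normalization and 187 and 74 after centering (261 in all), and numbered 1344 with a trend, 17 with 6 arrays and 22 to 1189 with single arrays left out. Same-numbered arrays did not deviate together (r -0.18 to 0.562), so the numbers were not taken to pair the arrays. With the replicate number as a block the calls were 7, 2094 and 167, Nr4a2 (limma adjusted p = 0.0476) and Nr4a3 (0.00685) kept their calls in Ccr2-/- over wild type, and no call of an NR4A gene was gained. The cause of these shifts was not tested, other than that fits of fewer arrays have fewer degrees of freedom. Of 2016 list counts under alternatives, 224 moved by over 1.5 times. After centering, calls in Ccr2-/- over wild type were lost for Dusp1, Dusp5, Zfp36, Fosl2, Nfatc1, Nfatc3, Elk4, Ptger4, Klf4, Cebpb, Notch2, Csf1r, Spi1, Spn, Dusp16, Thra, Rarg, Nr2c1, Esr1 and Tcf4, those of Cd9, Klrc1 and Cd177 in Ccl2-/- over wild type, and those of Dusp1, Rbpj, Cebpb, Notch2 and Rara in Ccr2-/- over Ccl2-/-. Quantile normalization took the calls of Rbpj, Cebpb and Notch2 in Ccr2-/- over Ccl2-/- and of Zfp36, Fosl2, Spi1, Thra, Nr2c1 and Esr1 in Ccr2-/- over wild type. None of the called genes named from the lists changed direction after centering or quantile normalization.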

Other observations

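Among the other cell type lists in Ccr2-/- over wild type monocytes, 1 of 6 eosinophil genes was called higher by limma, Ccr3. Called lower were 1 of 13 neutrophil genes, Csf3r, and 2 of 8 conventional dendritic cell genes, Flt3 and Cd209a. Of 5 plasmacytoid dendritic cell genes 2 were called lower, Bst2 and Tcf4. The other genes of these lists were not called, so no shift of a cell type is read from these calls. In this comparison 4.91% of all genes were called higher and 8.38% lower. Flt3 was also lower in Ccl2-/- monocytes. None of the B cell, basophil and mast cell, platelet and erythroid genes measured was called in Ccr2-/- over wild type by limma (1 lower among the B cell genes, 0 among the basophil and mast cell genes, and 1 higher in each of the platelet and erythroid lists at an unadjusted p under 0.05). In Ccl2-/- over wild type 7 of 9 basophil and mast cell genes were lower at an unadjusted p under 0.05, and none was called.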
